A study of Mus musculus with 4 samples.

Results

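Expression of 33 genes for lysosomal enzymes, membrane proteins and regulators was followed in the murine liver after overdose of acetaminophen (APAP). The 33 genes were chosen by symbol among the 27027 entries of the deposited count table, and 31 of them had a mean of at least 10 reads after normalization, as had 12113 entries in all. Young adult male C57BL/6J mice, fasted overnight, received APAP at 300 mg/kg or saline vehicle by intraperitoneal injection. At 24 h and at 48 h, hepatic RNA of 6 vehicle-treated animals was combined into a control pool and that of 7 animals given APAP into an APAP pool. Each pool gave 1 library by massive analysis of cDNA ends (MACE), a 3′mRNA sequencing method. A read in such a library stands for the 3′ end of an mRNA molecule, so a count does not grow with the length of the transcript.

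Lysosomes are acidic organelles in which proteases, glycosidases and lipases break down material taken up from outside the cell or delivered by autophagy. Their membrane holds heavily glycosylated proteins that shield it and a proton pump, the V-ATPase, that keeps the lumen acidic. In the liver they are known from hepatocytes, where they carry out autophagy, and from Kupffer cells and other macrophages, where they digest engulfed debris. Many lysosomal genes share a promoter motif built around CACGTG, which the transcription factor TFEB is known to bind.

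The 4 libraries held 4859661 to 5698778 reads. Folds were computed from reads divided by DESeq2 size factors (0.880 to 1.17). Scaling by library totals instead would raise all log2 folds of APAP against control by 0.19 at 24 h and 0.27 at 48 h. Each fold is given with its 95% interval, for which counting error alone was considered. As each condition was 1 library, nothing is known of the spread between mice, and no p-value is given. A gene counts here as higher or lower when it changed at least 2-fold and its interval left out 1. Pairs of read numbers are given for 24 h and then for 48 h. In bulk tissue, fewer cells of a type and less RNA per cell cannot be told apart.

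The promoters of 2 genes that were higher at both times show how the motif is placed in a gene that holds it and how a promoter without it reads. Lgmn (legumain, a cysteine protease) held 1 copy, and Cd63 (a tetraspanin of the lysosomal membrane), which had the highest fold of the 33 genes, held none. Both stretches are the 250 bases before a RefSeq start site on GRCm38, written 5′ to 3′, and capitals mark matches to TCACGTG or its reverse complement CACGTGA. By GENCODE both lie inside the gene but in no annotated exon, as each gene also has transcripts that start farther upstream.
Lgmn, chr12:102439093-102439342, minus strand: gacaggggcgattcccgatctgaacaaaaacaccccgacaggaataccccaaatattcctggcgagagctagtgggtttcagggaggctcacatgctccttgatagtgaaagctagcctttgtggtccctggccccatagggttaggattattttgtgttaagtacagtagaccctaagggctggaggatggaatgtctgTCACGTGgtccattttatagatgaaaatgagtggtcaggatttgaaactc
Cd63, chr10:128909095-128909344, plus strand: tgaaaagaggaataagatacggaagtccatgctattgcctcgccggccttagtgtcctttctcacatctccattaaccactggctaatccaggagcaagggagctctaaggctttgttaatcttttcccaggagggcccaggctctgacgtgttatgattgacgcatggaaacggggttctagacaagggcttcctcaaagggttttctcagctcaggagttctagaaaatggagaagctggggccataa

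In the RefSeq promoter table (250 bases before to 50 bases after a start), 29 of the 33 genes had an entry, and Ctsb, Ctsh, Atp6v1h and Asah1 had none. TCACGTG, read on both strands, occurred in the promoters of 9 of the 29 (31%), against 4.29% of the 27025 genes of the table. The shorter core CACGTG, which every TCACGTG match also contains, occurred in 10 of the 29 (34.5%) against 8.09%, with Ctsl as the added gene. The matches of 6 of the other 8 genes are printed with up to 10 bases on each side, to show where the motif lies in genes of different roles. The search took exact matches only, so the capital letters are alike by design. Ctsa and Mcoln1 held 2 copies each.
Gla, chrX:134601216-134601243, minus strand: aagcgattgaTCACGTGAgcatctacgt
Gla, chrX:134601183-134601210, minus strand: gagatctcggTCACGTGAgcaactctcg
Atp6v1a, chr16:44139374-44139401, minus strand: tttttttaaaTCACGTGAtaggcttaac
Lamp1, chr8:13159089-13159161, plus strand: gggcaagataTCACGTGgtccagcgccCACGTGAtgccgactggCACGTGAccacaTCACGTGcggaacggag
Glb1, chr9:114401019-114401045, plus strand: tgcttctgagTCACGTGgcctacagag
Atp6v0d1, chr8:105566051-105566078, minus strand: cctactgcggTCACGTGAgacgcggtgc
Ctsd, chr7:142388056-142388077, minus strand: tccccCACGTGAcctgtatcca
Ctsd, chr7:142387909-142387936, minus strand: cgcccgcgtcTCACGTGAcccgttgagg
Lamp1, a major glycoprotein of the lysosomal membrane, held 4 copies within 1 window. Gla and Ctsd held 2 copies each. By GENCODE, the second match of Ctsd lies in an exon of Ctsd and both matches of Gla lie in an exon of the overlapping gene Hnrnph2. The match of Lgmn lay before the downstream of the 2 start sites that the table lists for it. By size factors, genes with the motif did not share a direction in these libraries. Of the 8 with enough reads, 3 had a fold above 1 and 5 a fold below 1 at each time, with folds from 0.756 to 2.30 at 24 h and from 0.777 to 2.56 at 48 h. Of the 19 with a promoter entry, enough reads and no match, 11 were above 1 at 24 h and 13 at 48 h. The intervals of Ctsa, Glb1 and Mcoln1 held 1 at both times, and those of Gla and Atp6v0d1 at 24 h. These splits rest on the scale. By library totals Ctsa was at 1.04-fold at 24 h, and at 48 h Ctsa, Glb1 and Lamp1 were at 1.07-fold, 1.06-fold and 1.02-fold, with intervals that held 1. A match describes these letters and is not a binding site.

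As a group, the lysosomal genes changed little at 24 h and were moderately higher at 48 h. The reads of all 33 genes together were 1.004-fold the control at 24 h (0.983 to 1.03) and 1.11-fold at 48 h (1.09 to 1.13). Ctsd added at most 1 read per library to these sums. An entry that Ctsd shares with other genes, described below and under control at both times, was left out of them. The median log2 fold of the 31 genes was 0.03 at 24 h and 0.20 at 48 h, beside 0.01 and −0.02 over all 12113 genes. With library totals as the scale, it was 0.22 at 24 h and 0.46 at 48 h. At 24 h, 16 of the 31 folds lay above 1 and 15 below, and at 48 h 19 lay above and 12 below.

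At 24 h, 2 of 31 genes were counted as higher, Cd63 and Lgmn, and none as lower. Over all genes tested, 4.89% were higher and 4.99% lower by this rule. At 48 h, 4 of 31 genes were higher, Cd63, Lgmn, Ctss and Gla, and none was lower, against 4.79% and 4.99% of all genes. At a fold of at least 1.5 in place of 2, 5 genes were higher at 24 h (Atp6v1a, Cd63, Ctsc, Ctsl and Lgmn) against 9.75% of all genes, and 5 at 48 h (Atp6v1a, Cd63, Ctss, Gla and Lgmn) against 8.71%. None of the 31 was lower by 1.5-fold at either time, where 10.8% of all genes at 24 h and 10.9% at 48 h were.

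Further lysosomal genes changed by less than these thresholds but by more than counting error. At 24 h the interval lay above 1 for 6 genes and below 1 for 8, and at 48 h above 1 for 13 and below 1 for 6. Among all genes tested, 15.4% lay above and 18.3% below at 24 h, and 13.9% above and 18.9% below at 48 h. These shares are not on equal footing, since the 31 genes had a median of 300.0 normalized reads and all genes a median of 62.8, and more reads give narrower intervals. By library totals, 10 members lay above 1 and 5 below at 24 h, and 19 above and 0 below at 48 h. That scale raises the folds of all genes alike, 1.14-fold at 24 h and 1.20-fold at 48 h. The share of all genes above 1 on it was not computed, so these counts are not a result about the lysosomal genes.

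**Figure D1:**
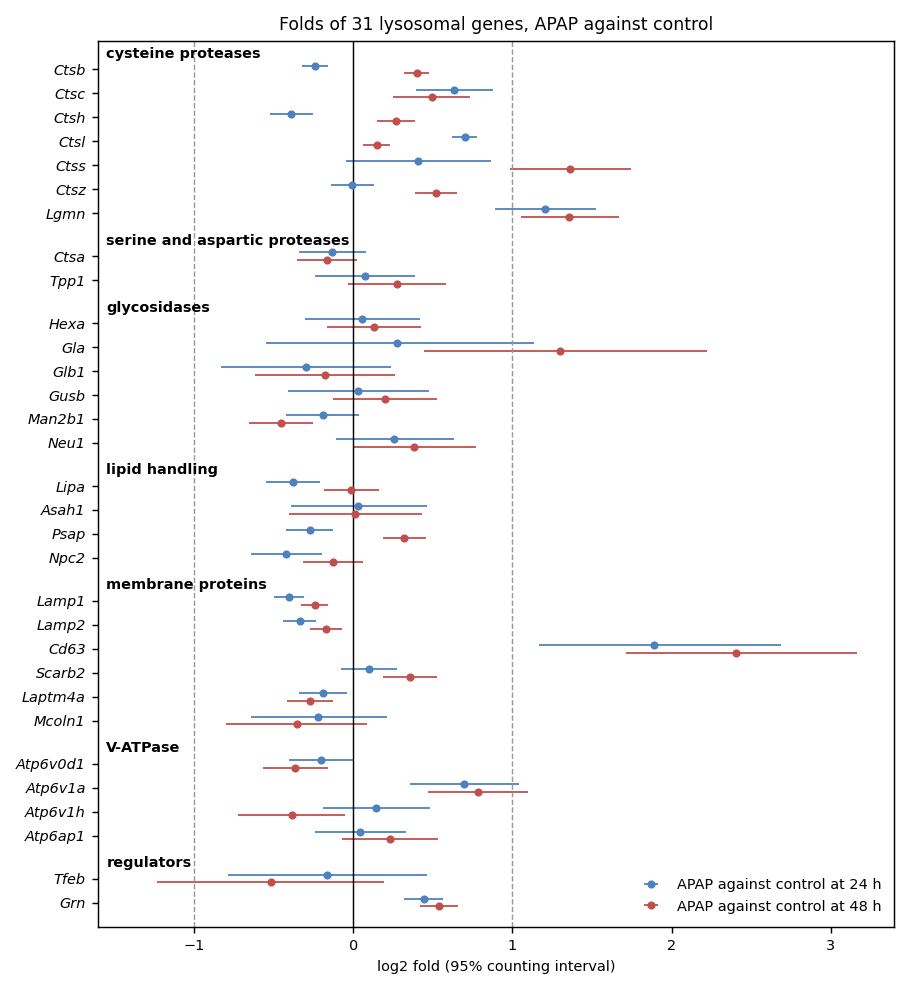
Log2 folds of APAP over the time-matched control for the 31 genes with enough reads, grouped by role, with points for the fold, bars for the 95% counting interval and dashed lines at 2-fold. At 48 h the intervals of all 7 cysteine proteases lie to the right of 0, while Cd63 lies farthest to the right at both times.

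Among the genes chosen here, the cysteine proteases with enough reads were all above control at 48 h. At that time all 7 with enough reads had intervals above 1, with folds from 1.11 to 2.57, whereas at 24 h 3 had intervals above 1 and 2 below. In none of the other 6 role groups did all intervals lie on 1 side of 1. In the same libraries the summed reads of monocyte and macrophage markers were 2.49-fold the control at 48 h. Lyz2 held 659 of the 1388 reads of this sum in the APAP pool, and Csf1r of the same list was at 0.936-fold. The summed reads of Kupffer cell markers were 1.43-fold the control at that time. The part of these markers in the folds of the 7 genes was not tested. The rise did not extend to Ctsf and Ctso, cysteine proteases of a further list described below. At 48 h the fold of Ctsf was 0.539 (0.393 to 0.734) and that of Ctso 0.640 (0.472 to 0.863). At 24 h they were 0.684 (0.491 to 0.951) and 0.741 (0.551 to 0.997), so all these intervals lay below 1 by size factors.

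Lgmn encodes legumain, an asparaginyl endopeptidase that cleaves the precursors of several cathepsins (GRCm38 chr12:102394084-102439813, minus strand). It had 112 and 118 reads in controls and 344 and 346 after APAP. Both APAP pools were high and both control pools low. The folds were 2.30 at 24 h (1.85 to 2.87) and 2.56 at 48 h (2.07 to 3.19), and the interval of their ratio, 0.817 to 1.52, held 1.

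Ctss encodes cathepsin S, which trims the invariant chain of MHC class II in antigen-presenting cells (chr3:95526786-95556403, plus strand). It had 65 and 79 reads in controls and 115 and 232 after APAP. The APAP pool of 48 h stood apart from the other 3. Its fold was 1.33 at 24 h, with an interval (0.970 to 1.83) that held 1, and 2.57 at 48 h (1.98 to 3.36), and the ratio of these folds was 1.94 (1.28 to 2.94). By library totals the interval at 24 h (1.10 to 2.08) lay above 1. The table's entry for Ctss also takes in reads that fit Ctss or Hmgb1-ps5, a pseudogene inside it.

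Ctsl, Ctsb and Ctsh, endopeptidases and an aminopeptidase of broad specificity, moved in different ways. Ctsl, which encodes cathepsin L, had 1875 and 1970 reads in controls and 4068 and 2497 after APAP. Its fold was 1.63 at 24 h (1.54 to 1.72) and 1.11 at 48 h (1.04 to 1.18). It was thus highest at 24 h, and the ratio of its folds, 0.682 (0.629 to 0.740), lay below 1.

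Ctsb and Ctsh did the opposite. Ctsb, which encodes cathepsin B, had 2266 and 2138 reads in controls and 2559 and 3226 after APAP. Its fold was 0.846 at 24 h (0.799 to 0.896) and 1.32 at 48 h (1.25 to 1.39). Ctsh, which encodes cathepsin H, had 894 and 979 reads in controls and 912 and 1351 after APAP, with folds of 0.764 (0.696 to 0.839) and 1.21 (1.11 to 1.31). For Ctsh the APAP pool was the lowest of the 4 normalized levels at 24 h and the highest at 48 h. For Ctsb this order rested on the scale, since by library totals its fold at 24 h was 0.963 (0.910 to 1.02) and the control pool of 48 h was the lowest.

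Ctsz and Ctsc were also above control at 48 h. Ctsz, a carboxypeptidase, had 804 and 771 reads in controls and 1069 and 1263 after APAP, with folds of 0.996 (0.908 to 1.09) and 1.43 (1.31 to 1.57). Ctsc, the dipeptidyl peptidase that activates granule serine proteases, had 209 and 230 reads in controls and 433 and 370 after APAP, with folds of 1.55 (1.31 to 1.84) and 1.41 (1.19 to 1.67). Ctsk, known from bone resorption, had 0 to 2 reads per library and was not detectable at this depth, since a count of 0 allows up to 3 reads.

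**Figure D2:**
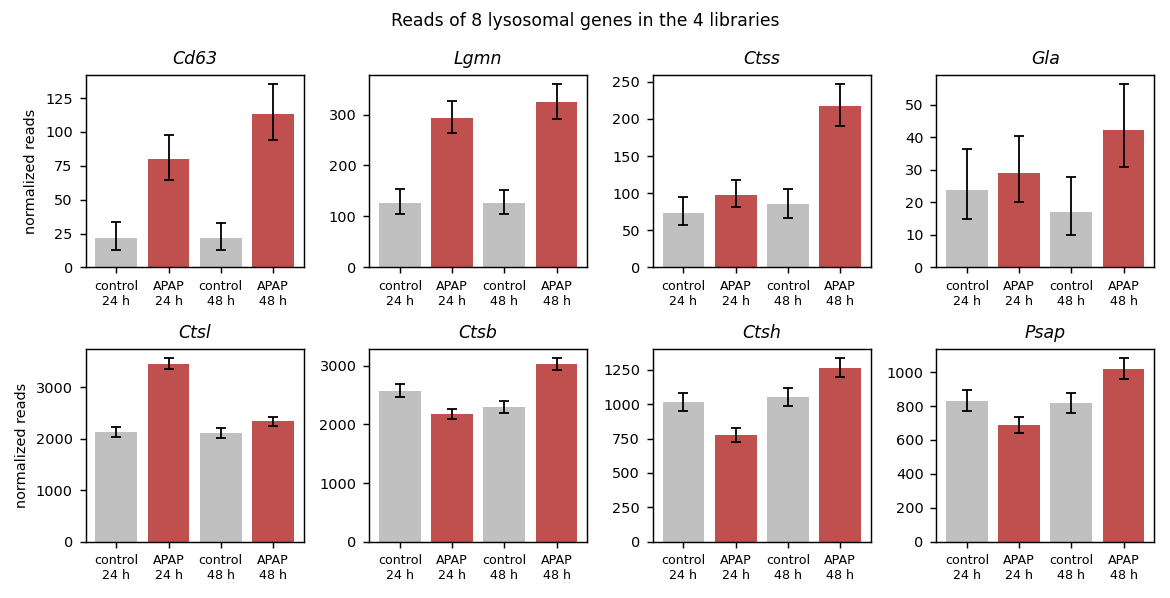
Normalized reads (counts divided by size factors, linear axes from 0) of 8 lysosomal genes in the 4 libraries, with grey bars for control pools, red bars for APAP pools and 95% Poisson counting intervals. Cd63 and Lgmn were high in both APAP pools, Ctss in that at 48 h, Ctsl in that at 24 h, and on this scale Ctsb, Ctsh and Psap were lowest in the APAP pool at 24 h, which for Ctsb did not hold by library totals, and highest in that at 48 h.

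The serine and aspartic proteases gave no call. Ctsa, the carboxypeptidase that protects lysosomal sialidase and beta-galactosidase, had 344 and 466 reads in controls and 419 and 476 after APAP, with folds of 0.913 and 0.893. Tpp1, a tripeptidyl peptidase, had 148 and 154 reads in controls and 208 and 213 after APAP, with folds of 1.05 and 1.21. All 4 intervals held 1, but by library totals Tpp1 was at 1.45-fold at 48 h (1.18 to 1.80).

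Ctsd, the main aspartic protease of the lysosome, had 1, 1, 0 and 0 reads under its own name. Its annotation overlaps that of Gm49369 on the same strand of chromosome 7, and the table collects reads that fit Ctsd or Gm49369, together with reads that fit Ifitm10 or Gm49369, in the entry AC034099.1. This entry held 1670 and 2027 reads in controls and 1638 and 2012 after APAP. Its folds were 0.735 at 24 h (0.686 to 0.787) and 0.868 at 48 h (0.816 to 0.924). How many of these reads came from Ctsd cannot be told apart, and the entry was kept out of the counts and the summed reads.

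Among the 6 glycosidases, Gla was the gene counted as higher, at 48 h. Gla (chrX:134588149-134601125, minus strand) had 21 and 16 reads in controls and 34 and 45 after APAP. Its normalized level was highest in the APAP pool at 48 h. The fold was 1.21 at 24 h (0.684 to 2.20) and 2.46 at 48 h (1.36 to 4.66), the interval of their ratio (0.858 to 4.82) held 1, and against the 24 h control pool the fold at 48 h was 1.77.

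By size factors, most of the other glycosidases were close to the control of the same time. Hexa, a subunit of beta-hexosaminidase, Glb1, the beta-galactosidase, Gusb, the beta-glucuronidase, and Neu1, the sialidase, had folds from 0.813 to 1.2 at 24 h and from 0.884 to 1.30 at 48 h, and all 8 intervals held 1. By library totals the intervals of Hexa, Gusb and Neu1 at 48 h lay above 1, with folds of 1.32, 1.38 and 1.57, and that of Glb1 held 1. Against the other control pool Gusb was at 0.592-fold at 24 h (0.455 to 0.767) and 1.98-fold at 48 h (1.51 to 2.62). Hexa was at 0.729-fold (0.584 to 0.911) and 1.56-fold (1.24 to 1.98) against it. Glb1 was at 0.571-fold at 24 h (0.408 to 0.797), and its interval at 48 h held 1. At 24 h Neu1 was at 1.35-fold against that pool (1.04 to 1.75) and at 1.36-fold by library totals (1.06 to 1.76). Man2b1, the alpha-mannosidase, had 294 and 452 reads in controls and 344 and 377 after APAP. Its fold at 48 h was 0.729 (0.634 to 0.838), but against the control pool of 24 h it was 1.06, as the control pools themselves differed 1.45-fold (1.25 to 1.69).

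The 4 genes of lipid handling were split between the times. Psap, the precursor of the saposins that help degrade sphingolipids, had 730 and 762 reads in controls and 806 and 1089 after APAP. Its fold was 0.827 at 24 h (0.747 to 0.916) and 1.25 at 48 h (1.14 to 1.37), and by library totals the interval at 24 h (0.851 to 1.04) held 1. Lipa, the acid lipase that hydrolyses cholesteryl esters and triglycerides, had 574 and 512 reads in controls and 589 and 581 after APAP. Its fold was 0.769 at 24 h (0.684 to 0.864) and 0.992 at 48 h (0.880 to 1.12). By library totals the fold of Lipa at 48 h was 1.19 (1.06 to 1.35). Against the control pool of 48 h its fold at 24 h was 0.914, with an interval (0.810 to 1.03) that held 1. Npc2, which carries cholesterol out of the lysosome, had 333 and 451 reads in controls and 332 and 473 after APAP, with folds of 0.747 (0.640 to 0.872) and 0.917 (0.804 to 1.05). At 24 h, then, 3 of the 4 had intervals below 1, and by library totals those of Lipa and Npc2 still did. Asah1, the acid ceramidase, stayed near 1 with folds of 1.02 and 1.01, and both intervals held 1.

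The membrane proteins held the gene with the highest fold and 3 genes whose intervals lay below 1 at both times by size factors, though at neither time for Laptm4a and at 24 h alone for Lamp1 and Lamp2 by library totals. Cd63, a tetraspanin of late endosomes, lysosomes and exosomes (chr10:128900989-128912822, plus strand), had 19 and 20 reads in controls and 94 and 121 after APAP. The control pools were low and alike, and both APAP pools were high. The fold was 3.71 at 24 h (2.25 to 6.43) and 5.29 at 48 h (3.28 to 8.97), the highest of the 31 genes at both times.

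The last 300 bases of Cd63 were 99.3% identical to its pseudogene Cd63-ps, and among the 33 genes it was the gene with such a shared 3′ end (at least 95% identity over at least 100 bases). The entry of Cd63-ps held 8 and 19 reads in controls and 39 and 69 after APAP. Reads could have been divided between the entries, so the level of Cd63 is uncertain. With the reads of both entries added up, the fold was 3.69 at 24 h (2.43 to 5.81) and 4.26 at 48 h (3.01 to 6.18).

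Lamp1 and Lamp2, the most abundant glycoproteins of the lysosomal membrane, were below control. Lamp1 had 1907 and 2227 reads in controls and 1925 and 2153 after APAP. Its fold was 0.756 at 24 h (0.710 to 0.806) and 0.845 at 48 h (0.796 to 0.897), and by library totals it was 1.02 at 48 h. Lamp2 had 1529 and 1663 reads in controls and 1617 and 1690 after APAP. Its fold was 0.792 at 24 h (0.738 to 0.850) and 0.889 at 48 h (0.830 to 0.951), and by library totals it was 1.07 at 48 h. The direction of both genes at 48 h therefore rested on the scale.

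Laptm4a, a small transmembrane protein of late endosomes and lysosomes, had 677 and 832 reads in controls and 792 and 788 after APAP, with folds of 0.876 (0.790 to 0.973) and 0.828 (0.75 to 0.914). By library totals these were 0.998 (0.899 to 1.11) and 0.996 (0.902 to 1.10), and both intervals held 1. Scarb2, the receptor that carries glucocerebrosidase to the lysosome, had 448 and 476 reads in controls and 640 and 697 after APAP. Its interval held 1 at 24 h and lay above 1 at 48 h (fold 1.28, 1.14 to 1.44). By library totals the interval of Scarb2 lay above 1 at 24 h as well (fold 1.22, 1.08 to 1.38). Mcoln1, a cation channel that releases lysosomal calcium, had 84 to 101 reads per library, and both of its intervals held 1.

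Of the 4 V-ATPase genes, Atp6v1a was above control at both times. Atp6v1a, the catalytic subunit, had 105 and 129 reads in controls and 227 and 254 after APAP, with folds of 1.62 at 24 h (1.28 to 2.06) and 1.72 at 48 h (1.39 to 2.15). Atp6v0d1 and Atp6v1h, further subunits of the pump, had intervals that held 1 at 24 h and lay below 1 at 48 h. Atp6v0d1 had 369 and 423 reads in controls and 429 and 376 after APAP, and at 48 h its fold was 0.777 (0.675 to 0.895). Atp6v1h had 124 and 160 reads in controls and 183 and 140 after APAP, and at 48 h its fold was 0.765 (0.605 to 0.966). Atp6ap1, an accessory subunit, had folds of 1.03 and 1.17, and both intervals held 1, but by library totals it was at 1.41-fold at 48 h (1.15 to 1.74). By library totals the folds of Atp6v0d1 and Atp6v1h at 48 h were 0.935 (0.811 to 1.08) and 0.920 (0.728 to 1.16), and both intervals held 1.

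Of the regulators, Grn was above control at both times. Grn encodes progranulin, a secreted precursor whose products act in the lysosome, and had 869 and 903 reads in controls and 1576 and 1502 after APAP. Its folds were 1.36 at 24 h (1.25 to 1.48) and 1.45 at 48 h (1.34 to 1.58). Tfeb, the transcription factor, had 42 and 40 reads in controls and 50 and 32 after APAP. Its folds, 0.892 (0.580 to 1.38) and 0.7 (0.425 to 1.14), had intervals that held 1, and changes within these bounds were not detectable at this depth.

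Between 24 h and 48 h the lysosomal genes were higher at the later time in the APAP pools. Their summed reads were 1.13-fold higher at 48 h (1.11 to 1.16), against 1.03-fold (1.004 to 1.05) between the control pools, and the median log2 fold was 0.26 against 0.04. Over all genes tested these medians were −0.01 and 0.02. By the 2-fold rule Ctss was higher at 48 h among the APAP pools (2.22-fold, 1.77 to 2.80) and no gene was lower, against 2.36% and 2.42% of all genes. Between the control pools no member passed that rule, against 1.77% higher and 1.44% lower.

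At 1.5-fold, Ctsh, Ctss, Glb1, Gusb, Hexa and Npc2 were higher in the APAP pool at 48 h than at 24 h and none was lower, against 5.58% and 5.88% of all genes. Between the control pools Gusb was higher and none was lower, against 3.95% and 3.65%. The interval lay above 1 for 16 genes and below 1 for Ctsl in the APAP pools, against 12.2% and 13.2% of all genes, and above 1 for 8 and below 1 for 3 between the control pools, against 10.7% and 8.16%.

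Some of the genes higher at 48 h were higher to a like degree without APAP. Gusb had 77 and 141 reads in controls and 105 and 185 after APAP. It was 1.94-fold higher at 48 h in the APAP pools (1.52 to 2.49) and 1.73-fold in the control pools (1.30 to 2.31). Hexa was 1.5-fold and 1.43-fold higher, Glb1 1.55-fold and 1.42-fold, and the intervals of both arms lay above 1. For Ctsb, Ctsh, Ctss and Psap, in contrast, the control pool of 48 h was at 0.890-fold to 1.15-fold that of 24 h.

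**Figure D3:**
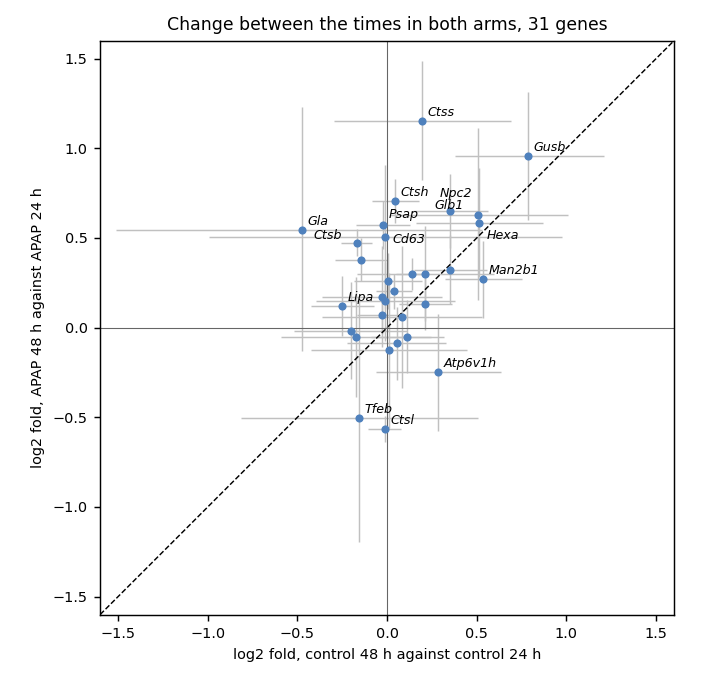
Log2 fold of 48 h against 24 h in the control pools (horizontal axis) and in the APAP pools (vertical axis) for the 31 lysosomal genes, with 95% counting intervals in grey and a dashed line where both are equal. Gusb, Hexa and Glb1 lie near the dashed line, Ctss, Ctsh, Psap and Ctsb above it, and Ctsl below it.

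The ratio of the fold at 48 h to the fold at 24 h uses all 4 libraries. Its interval lay above 1 for 10 genes (Ctsb, Ctsh, Ctss, Ctsz, Lipa, Psap, Npc2, Lamp1, Lamp2 and Scarb2), below 1 for Ctsl and Atp6v1h, and held 1 for the other 19. Among all genes tested it lay above 1 for 8.85% and below 1 for 11%, again with fewer reads per gene and so wider intervals. These ratios are by size factors. Library totals, which raise folds 1.14-fold at 24 h and 1.20-fold at 48 h, would raise every ratio. The upper bound of Atp6v1h, 0.967, lay close to 1. Its intervals between the times held 1 in the APAP pools (0.671 to 1.06) and in the control pools (0.957 to 1.55). The ratio was 1.56 for Ctsb (1.44 to 1.69), 1.58 for Ctsh (1.39 to 1.79), 1.51 for Psap (1.32 to 1.74) and 1.44 for Ctsz (1.26 to 1.64). For Lipa the control pool of 48 h was at 0.841-fold that of 24 h (0.745 to 0.949). Between the APAP pools its fold was 1.09, with an interval (0.967 to 1.22) that held 1. Cd63 was 1.42-fold higher in the APAP pool of 48 h than in that of 24 h (1.07 to 1.88), but with its few control reads taken in, the ratio of its folds was 1.43 with an interval of 0.677 to 2.99, which held 1.

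A second list of 75 lysosomal genes outside the 33 was examined for comparison, and 69 had enough reads. At 24 h, 1 was higher (Ctse) and 1 lower (Gm2a), or 1.45% each, against 4.89% and 4.99% of all genes tested. At 48 h 4 were higher (Cd68, Cstb, Laptm5 and Slc11a1), or 5.80%, and none lower, against 4.79% and 4.99%. Between the APAP pools Cd68 and Tmem175 were higher at 48 h, or 2.90%, against 2.36% of all genes. The median log2 fold of the 69 was 0.02 at 24 h and 0.08 at 48 h. Cd68, a lysosomal glycoprotein typical of macrophages, had 64 and 59 reads in controls and 161 and 345 after APAP, and was 5.11-fold higher at 48 h (3.87 to 6.86). Gm2a, the activator protein for GM2 ganglioside breakdown, had 1043 and 1434 reads in controls and 693 and 1016 after APAP, and was 0.498-fold at 24 h (0.452 to 0.549), a value at the threshold that was not called by TMM or by library totals.

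The remaining genes called in that list were Ctse, an intracellular aspartic protease, at 2.70-fold at 24 h (1.31 to 6.09), Cstb, an inhibitor of cathepsins, at 2.15-fold at 48 h (1.84 to 2.51), Laptm5, a lysosomal protein of haematopoietic cells, at 2.26-fold (1.67 to 3.08), and Slc11a1, a metal transporter of phagosomes, at 2.43-fold (1.55 to 3.92). Cd68, Laptm5 and Slc11a1, like Ctss among the 33 genes, are best known from macrophages and other leukocytes. All 4 were named because they were called higher at 48 h, so a highest normalized level in that APAP pool is no separate result. Cd63, Lgmn and Gla were also at their highest level there.

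Markers of other cell types moved in the same libraries. The summed reads of 10 monocyte and macrophage markers were 1.73-fold the control at 24 h (1.54 to 1.94) and 2.49-fold at 48 h (2.25 to 2.77), and 4 and 7 of the 9 with enough reads were counted as higher. Those with the most reads were Lyz2, at 3.42-fold and 5.39-fold, Csf1r, at 0.995-fold and 0.936-fold, and Tyrobp, at 1.57-fold and 2.36-fold. Lyz2 held 384 of the 949 summed reads in the APAP pool of 24 h and 659 of 1388 in that of 48 h, so the sum leans on this gene. Adgre1 was at 0.793-fold and 1.14-fold, and both intervals held 1. Summed over 8 Kupffer cell markers the fold was 0.910 at 24 h (0.848 to 0.978) and 1.43 at 48 h (1.34 to 1.53). Marco, a scavenger receptor, was the gene of this list counted as higher, at 3.06-fold and 3.99-fold. C1qa was at 0.937-fold and 1.48-fold, C1qb at 0.865-fold and 1.47-fold and C1qc at 0.689-fold and 1.31-fold. Cd5l was at 1.12-fold and 1.51-fold, Timd4 at 1.04-fold and 1.12-fold, Clec4f at 0.534-fold and 0.985-fold, and Vsig4 at 0.781-fold and 1.57-fold.

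The 6 neutrophil markers of the table had 16 and 18 summed reads in controls and 252 and 182 after APAP, mostly of S100a8 and S100a9, with folds of 11.8 (7.13 to 21.0) and 8.84 (5.44 to 15.3). Each library but the APAP pool of 24 h had 1 of the 6 at 0 reads. Stellate cell and fibroblast markers summed to 1.22-fold at 24 h and 2.09-fold at 48 h. Of these 8 genes, 5 were counted as higher at 48 h, against 4.79% of all genes. At that time Acta2 was at 13.6-fold and Col1a1 at 4.50-fold, but Lrat at 0.832-fold and Reln at 0.846-fold. At 24 h Lrat was at 0.557-fold (0.322 to 0.951) and Acta2 at 2.16-fold. Endothelial markers summed to 1.16-fold at 24 h (1.05 to 1.29) and 1.10-fold at 48 h, where the interval (0.995 to 1.21) held 1. At 48 h Pecam1 was at 1.94-fold and Stab2 at 0.780-fold. Cholangiocyte markers summed to 3.39-fold and 1.38-fold, with Sox9 as the 1 gene of that list called. Sox9 held 307 of the 335 summed cholangiocyte reads in the APAP pool of 24 h and 141 of 158 in that of 48 h. Krt7, Krt19 and Epcam had too few reads to be counted, and their folds at 48 h were 0.328, 0.538 and 0.612. The sum thus describes Sox9 more than the cell type. The 5 lymphocyte markers had 6 to 13 summed reads per library, with Cd8a at 0 in all 4. The 8 hepatocyte markers were at 0.854-fold (0.851 to 0.858) and 0.962-fold (0.958 to 0.966), none of them at 0 in any library. Cyp2e1, the cytochrome that activates APAP, was the hepatocyte marker counted as lower, at 0.369-fold at 48 h after 0.623-fold at 24 h. The part of cell composition in the folds of the lysosomal genes was not tested.

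**Figure D4:**
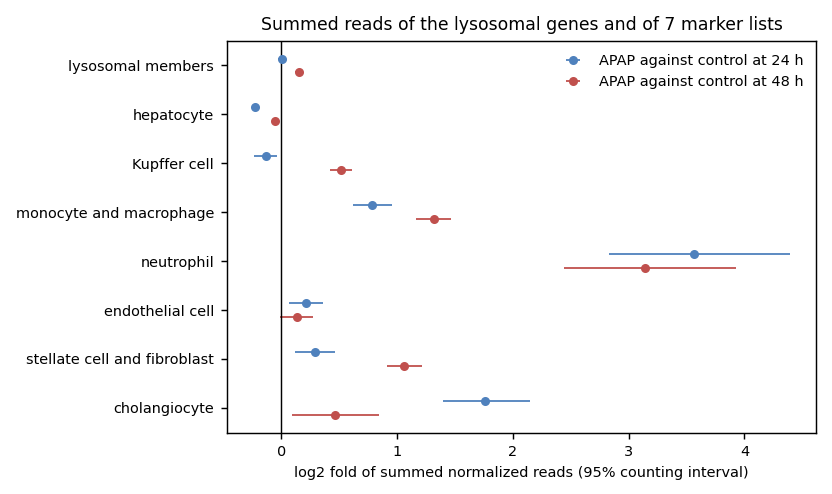
Log2 folds of summed normalized reads, APAP against control at 24 h and 48 h, for the 33 lysosomal genes and for 7 lists of cell type markers, with 95% counting intervals. The lysosomal genes together lie near 0 at 24 h and at 1.11-fold at 48 h, below the Kupffer cell list at 48 h and far below the monocyte and neutrophil lists.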

How the data were processed

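Hepatic RNA was pooled per group, and each of the 4 pools was sequenced as 1 MACE library. The authors removed duplicate reads by unique molecular identifiers, clipped poor bases with cutadapt and poly(A)-tails with a script of their own, mapped to mm10 and deposited the HTSeq count of reads per gene, without normalization. Tool versions are not given in the sources used here. Depth-scaled values (RPM), ratios, p-values and false discovery rates computed by the authors in the same table were not used.

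Groups followed the titles of the libraries. The deposited counts were divided by DESeq2 1.42.0 size factors (R 4.3.3). Folds and intervals came from Python 3.11.15 (scipy 1.17.1, pandas 2.3.3, numpy 2.4.6). Counts of 3 or fewer were set to 3, and no fold was given where both were. The 95% intervals are exact (Clopper-Pearson, and noncentral hypergeometric for the ratio of folds) and cover counting error only. No test was run with 1 library per group. Entries averaging 10 or more normalized reads were counted. All 33 genes are accounted for. Other lysosomal genes were named where called in APAP against control or between the APAP pools, and Ctsf and Ctso beside the cysteine proteases. Up to 3 monocyte and macrophage markers were named by read number, and Adgre1 beside them. Kupffer cell and cholangiocyte markers were all named, and single genes of the hepatocyte, neutrophil, lymphocyte, stellate cell and endothelial lists. Ly6g, a further neutrophil marker, was not in the table. The genes and lists were chosen with earlier results of these data known. Positions and 3′ ends came from GENCODE M21 and promoters from RefSeq, both GRCm38. The procedure was tested on simulated data. Alternatives were TMM (edgeR 4.0.16), library totals, a pseudocount of 1, other control pools, thresholds and filters.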

Additional observations from a re-analysis of the deposited data

Results flagged for a closer look

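For 3 lysosomal genes the fold of APAP against control went opposite ways at the 2 times, with both counting intervals off 1. Ctsb was at 0.846-fold at 24 h and 1.32-fold at 48 h, Ctsh at 0.764-fold and 1.21-fold, and Psap at 0.827-fold and 1.25-fold. The difference was not tested, since each group was 1 library, and the intervals of the ratio of folds cover counting error only. By library totals the folds at 24 h were 0.963 for Ctsb (0.910 to 1.02), 0.870 for Ctsh (0.792 to 0.955) and 0.942 for Psap (0.851 to 1.04), so the intervals of Ctsb and Psap held 1. Against the control pool of 48 h they were 0.951 (0.897 to 1.01), 0.740 and 0.840, and that of Ctsb held 1. Opposite folds with both intervals off 1 thus held in both alternatives for Ctsh, and for Psap against the other control pool.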

How the results depend on the processing

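The folds of Cd63, Lgmn, Ctss and Gla stayed above 1 at both times in every alternative run, but against the control pool of 24 h Gla was no longer 2-fold higher at 48 h, which left 3 members. No gene counted as 2-fold higher was reversed, but at 48 h Lamp1 and Lamp2 crossed 1 by library totals (1.02 and 1.07), as did Man2b1 against the other control pool (1.06). Of 500 member folds recomputed under the alternatives, 446 stayed inside the interval of the reported value and 54 moved out of it. Against the other control pool 21 moved and 41 stayed, and against the sum of both control pools 6 moved and 56 stayed. None moved by TMM or with a pseudocount, and the rest of the moves came with library totals. The pooled figure thus hides how far the folds depend on the control pool. Each group was 1 library, so the spread between mice was not measured, and folds of genes with few reads (Gla, Cd63, Tfeb) are wide. No paired analysis was possible because each group was 1 library and the labels give no replicate numbers. Nor was there a replicate to leave out.

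By library totals the median log2 fold of the members at 48 h was 0.46 in place of 0.20, and 2 members were higher between the APAP pools in place of 1. At a threshold of 1.5-fold, 5 members were higher at 24 h, 6 between the APAP pools and 1 between the control pools. The counts of other lysosomal genes were small and moved more. At 24 h, 0 were lower by TMM. By library totals 2 were higher and 0 lower. Against the other control pool 2 were higher and 2 lower, and the same against the sum of both control pools. Without a filter on low counts 2 were higher at 24 h and 1 lower at 48 h. With a pseudocount of 1 and no floor, 0 were higher between the control pools. At 1.5-fold, 6 were higher and 5 lower at 24 h, against 9.75% and 10.8% of all genes tested. At 48 h 7 were higher and 3 lower, against 8.71% and 10.9%. Between the APAP pools 9 were higher and 1 lower, against 5.58% and 5.88%. Of 2 alternatives chosen after seeing the data, taking Ctsd from the shared entry left the counts of members within 1.5 times, and adding Cd63-ps to Cd63 left the folds of Cd63 inside their reported intervals.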
